A study of Arabidopsis thaliana with 18 samples.

Results

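Alternative 3′ splice site (A3) events join the same upstream exon to either of a pair of acceptor sites at the start of the downstream exon. The genes described here are the 95 *Arabidopsis thaliana* genes whose only listed splicing event was of this type. They were taken from a table of 399 events in 334 genes as the genes that stand on a single row with an A3 event, after a set of floral repressor, clock, splicing factor and chromatin genes had been left out. The table lists 130 A3 events in all. Of the 35 A3 events that are not members, 23 lie in genes with several events and 12 in the genes left out. The choice used the event type and the number of rows, and no PSI value directly. A row stands only for an event that the authors called, so the number of rows rests on their calls.

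The study compared the mutant lines *sdg8-2* and *sdg26-1* with wild type (WT, Col-0), each at 25 °C and at 16 °C. The mutants are T-DNA insertion lines. *sdg8-2* lacks SDG8 (AT1G77300, chromosome 1 of TAIR10.1, 29039922 to 29049454, reverse strand) and *sdg26-1* lacks SDG26 (AT1G76710, chromosome 1, 28789698 to 28792719, reverse strand), both of them SET-domain histone methyltransferases. All plants of the 3 genotypes spent 5 weeks at 16 °C in short days with 8 h of light and 16 h of dark, after which 1 set had a day at 25 °C and the other stayed at 16 °C. Each of the 6 conditions had 3 samples of tissue enriched in shoot apical meristem, 18 in all, each pooled from about 10 plants. Neither methyltransferase gene has an event in the table and no expression levels were used here, so neither the mutations nor the tissue could be checked from these values.

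The measured quantity was PSI ("percent spliced in"), a fraction between 0 and 1 that gives how much of an event's RNA is of the form counted as spliced in. The authors merged the samples of a condition, so that each event has 1 PSI value with 2 decimals per condition, 6 in all. There is no spread between replicates and the read depth behind each value is unknown. Differences are therefore described by their size, no test was possible, and a difference of at least 0.1 is used below as a size to count, not as a threshold of significance. Every listed event had been called by the authors between 25 °C and 16 °C in at least 1 genotype, so that events without a temperature response are missing from the table and the presence of temperature differences is no finding. Per the study's methods, a called event had to reach a minimum number of reads specific to its forms in the compared conditions. Its PSI also had to differ less among replicates of a condition than between the conditions. In tissue of many cell types, a different mix of cells and different splicing within a cell cannot be told apart. The table does not say which acceptor the spliced-in form uses, and a higher PSI can stand for the upstream or the downstream site.

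The 3′ splice site is recognised through the branch point, the polypyrimidine tract and the AG dinucleotide that ends the intron. The AG is bound by the small subunit of U2AF and the tract by the large subunit, and the second step of splicing then joins the exons at a chosen AG. Where AG dinucleotides lie close together, as in tandem acceptors of the form NAGNAG, either can be used, and the transcripts differ by a few bases. A shift of 3 bases adds or removes a single codon's length and keeps the reading frame. Trimethylation of lysine 36 of histone H3 (H3K36me3), to which SDG8 and SDG26 contribute, lies over the bodies of transcribed genes and has been linked in several organisms to the choice of splice sites.

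Acceptor pairs that annotated transcripts of the members use with a common donor site were read from the RefSeq annotation of TAIR10.1, which holds 94 of the 95 genes (all but AT4G19112). Exactly 1 pair was annotated in 45 genes, several pairs in 20 and none in 29. Of the 98 annotated pairs, 97 had AG at both sites. The table gives no event positions, so it is not known that the measured event is the annotated pair. The windows below were picked, from genes with 1 annotated pair whose PSI values are described further on, to show acceptors 3 to 6 bases apart with different letters and with temperature differences in either direction. Each runs 5′ to 3′ on the strand of the gene over the end of the intron to the first bases after the downstream site, and capitals mark the AG of the upstream and of the downstream acceptor. The first set has acceptors 3 bases apart.

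SHH2, chr3:6311263-6311292, reverse strand: atttcttttccgttatcccAGcAGgaaatc
TKI1, chr2:15525291-15525320, forward strand: aagcatctcttcctttttcAGcAGgttata
AT5G14440, chr5:4656168-4656197, reverse strand: tttaatgaactgtgttcgtAGcAGcaacaa
AT1G77800, chr1:29259963-29259992, forward strand: tgtcttgataactgataatAGcAGcatgta
RH3, chr5:9285610-9285639, reverse strand: ttgattgatgcctttaaacAGaAGttttgg
AT1G36070, chr1:13470261-13470290, reverse strand: ttaagctgttttatgtgacAGaAGaagatg
KEG, chr5:4349738-4349767, forward strand: ttaacatgtatactgctgcAGaAGgtagag
WRKY11, chr4:15290453-15290482, reverse strand: tctatttgatttttaatgaAGcAGgaaaaa
AT4G14920, chr4:8531582-8531611, reverse strand: ttggctccattgtttgtcaAGaAGactgtg
AT4G32330, chr4:15610836-15610865, forward strand: aataacttgatggtttcttAGtAGtccgaa

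In the next set the acceptors lie 4 bases (AT5G19210 and AT1G14270), 5 bases (TRM15) or 6 bases (AGO1 and AT2G20950) apart. A distance of 6 bases is again a multiple of 3, whereas 4 and 5 are not.

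AGO1, chr1:17890638-17890667, reverse strand: gttttgctaacatgttAGaatcAGgtatat
AT2G20950, chr2:9004290-9004319, forward strand: tatattggctctacttAGttgcAGactcag
TRM15, chr4:198188-198217, forward strand: cattgctaattttttttAGcacAGaaccat
AT5G19210, chr5:6461972-6462001, forward strand: gtgttgtttggtaatcttAGacAGgttcag
AT1G14270, chr1:4876463-4876492, reverse strand: gagattaattttgttcccAGgcAGttttgt

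All of these pairs lie in coding sequence in the annotation, except that the upstream site of AT1G14270 and the downstream site of AT5G19210 begin an exon in the 5′ UTR of the transcript that uses them. The letters before the AG dinucleotides differ from gene to gene, with TAG, CAG or AAG at the upstream site.

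Across the 95 genes, both forms of the event were present at sizeable shares in most cases. The median PSI was 0.51 at 25 °C, against 0.57 at 16 °C, in *sdg8-2*, 0.53 at both temperatures in *sdg26-1*, and 0.53 at 25 °C, against 0.55 at 16 °C, in WT. In WT at 16 °C, 16 genes had a PSI below 0.2, 57 lay between 0.2 and 0.8, and 22 were above 0.8. No member was listed at 0 in any condition, and the values ran between 0.01 and 0.99.

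Between the temperatures, the A3 genes divided almost evenly into those with higher and those with lower PSI. In *sdg8-2*, PSI was higher at 25 °C than at 16 °C in 46 genes and lower in 49, while 42.6% of all 399 listed events were higher and 56.1% lower. In *sdg26-1*, 43 were higher and 52 lower, beside 43.1% and 55.9% of all events. WT had 44 genes higher, 50 lower and 1 equal, beside 44.1% and 54.6%. The median change, 25 °C minus 16 °C, was −0.01 in *sdg8-2* and −0.03 in both *sdg26-1* and WT. The range of the changes was −0.41 to 0.48 in *sdg8-2*, −0.33 to 0.26 in *sdg26-1* and −0.33 to 0.36 in WT.

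Differences of at least 0.1 were no more frequent in these genes than in the whole table. In *sdg8-2* they were found in 52 of the 95 genes (54.7%), 25 higher and 27 lower at 25 °C, beside 56.1% of all 399 events (24.3% higher, 31.8% lower). *sdg26-1* had 49 such genes (51.6%), 21 higher and 28 lower, beside 59.6% of all events (24.8% higher, 34.8% lower). In WT there were 42 (44.2%), 16 higher and 26 lower, beside 51.1% of all events (23.3% higher, 27.8% lower). The median absolute change of the members was 0.11 in *sdg8-2*, 0.1 in *sdg26-1* and 0.09 in WT. Among the 304 other listed events, at least 0.1 was reached by 56.6% in *sdg8-2*, 62.2% in *sdg26-1* and 53.3% in WT. These shares depend on the selection of the listed events and were not tested.

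The direction of the temperature difference was mostly shared by the genotypes. In 82 of the 95 genes (86.3%) PSI differed the same way in *sdg8-2*, *sdg26-1* and WT, 38 of them higher and 44 lower at 25 °C. The share was 84.0% in the whole table and 83.2% in the other 304 events. The 6 conditions come from separate libraries, so the changes of the 3 genotypes share no samples, although an event enters the table only where at least 1 of these changes was called. Across the 95 genes the changes had a Pearson correlation of 0.75 (Spearman 0.79) between *sdg8-2* and WT, 0.81 (0.84) between *sdg26-1* and WT, and 0.76 (0.78) between the mutants. In the 304 other events the correlations were similar, with 0.74 (0.75), 0.77 (0.77) and 0.8 (0.8) in the same order. All of these describe genes or events, which are not replicates.

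Within a gene the 3 changes lay close together in many cases. The distance between the lowest and the highest of the 3 had a median of 0.07, beside 0.09 in the other events. It was at most 0.02 in 15 genes and at most 0.05 in 34, and it reached at least 0.2 in 11, beside 35, 96 and 46 of the 304 other events. Counted by the genotypes with a difference of at least 0.1, 22 genes had it in all 3, 17 in none, 12 in *sdg26-1* alone, 16 in *sdg8-2* alone and 7 in WT alone. A further 8 had it in both mutants, 6 in *sdg8-2* and WT, and 7 in *sdg26-1* and WT. Of all 399 listed events, 126 had it in all 3 genotypes, 77 in none, 44 in *sdg26-1* only, 38 in *sdg8-2* only, 22 in WT only, 36 in both mutants, 24 in *sdg8-2* and WT, and 32 in *sdg26-1* and WT.

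**Figure D1:**
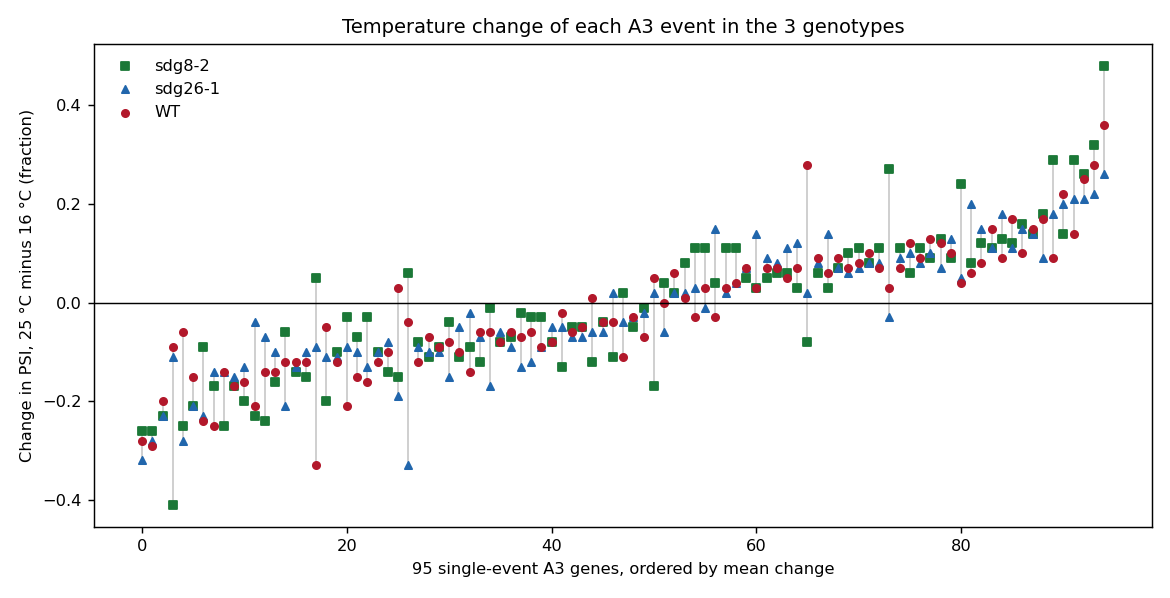
Change in PSI (25 °C minus 16 °C, as a fraction) of the 95 single-event A3 genes, ordered by their mean change, with green squares for *sdg8-2*, blue triangles for *sdg26-1* and red circles for WT, 1 pooled value each, and a grey line that joins the 3 values of a gene. In 82 genes the 3 symbols lie on the same side of 0, and in 11 genes the grey line spans at least 0.2.

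In 22 genes (23.2%) PSI differed by at least 0.1 in the same direction in all 3 genotypes, 9 higher and 13 lower at 25 °C, beside 30.3% of all listed events. The 35 A3 events outside the members had a larger share, with 23 of 35 (65.7%). These 35 events lie in genes with several listed events or in the genes left out, and the share was not split between these.

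Large and even differences were found in *AGO1* (AT1G48410), which encodes ARGONAUTE 1, the main effector of microRNA-guided silencing. Its PSI was 0.46 at 25 °C, against 0.72 at 16 °C, in *sdg8-2*, 0.46 against 0.74 in *sdg26-1*, and 0.45 against 0.74 in WT. At each temperature the 3 genotypes lay within 0.02 of each other, while the temperatures were at least 0.26 apart. The form counted as spliced in was thus the major form at 16 °C and, by a small margin, the minor form at 25 °C in every genotype. The single annotated acceptor pair of the gene, printed above, lies 6 bases apart in coding sequence.

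AT1G01910, a gene of the P-loop hydrolase superfamily, had the lowest mean change of all members. In *sdg8-2* its PSI was 0.15 at 25 °C, against 0.41 at 16 °C. The values were 0.15 and 0.47 in *sdg26-1* and 0.14 and 0.42 in WT, so that the genotypes met at 25 °C within 0.01. AT2G23790, a gene of the mitochondrial calcium uniporter family, had changes of −0.23 in *sdg8-2*, −0.23 in *sdg26-1* and −0.2 in WT, but at levels that differed between genotypes, with 0.23 at 25 °C and 0.46 at 16 °C in *sdg8-2*, 0.31 and 0.54 in *sdg26-1*, and 0.37 and 0.57 in WT.

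A similar case was AT4G01995, annotated as beta-carotene isomerase D27, an enzyme type that acts in strigolactone synthesis. PSI was 0.24 at 25 °C, against 0.45 at 16 °C, in *sdg8-2*, 0.27 against 0.48 in *sdg26-1*, and 0.22 against 0.37 in WT. AT5G27730, which encodes an uncharacterised acetyltransferase-like protein, had 0.27 against 0.44 in *sdg8-2*, 0.34 against 0.48 in *sdg26-1*, and 0.26 against 0.51 in WT. For AT3G61010, annotated in the ferritin-like family, the values were 0.48 against 0.65 in *sdg8-2*, 0.37 against 0.52 in *sdg26-1*, and 0.37 against 0.54 in WT. In these 3 genes PSI was lower at 25 °C in every genotype, with changes between −0.25 and −0.14. AT4G38330, a hemolysin-III-like membrane protein gene, had 0.36 against 0.45 in *sdg8-2*, 0.38 against 0.61 in *sdg26-1*, and 0.33 against 0.57 in WT, so that at 16 °C *sdg8-2* was 0.12 below WT.

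In the opposite direction, AT1G63640, which encodes a kinesin with a calponin homology domain, had a PSI of 0.86 at 25 °C, against 0.6 at 16 °C, in *sdg8-2*, 0.81 against 0.6 in *sdg26-1*, and 0.84 against 0.59 in WT. *DEG15* (AT1G28320) encodes a protease that processes proteins imported into peroxisomes. Its PSI was 0.76 against 0.47 in *sdg8-2*, 0.72 against 0.51 in *sdg26-1*, and 0.67 against 0.53 in WT, so that its change was 0.29, 0.21 and 0.14. The gene with the greatest mean change, AT5G26180, encodes a putative methyltransferase. It differed by 0.48 in *sdg8-2*, 0.26 in *sdg26-1* and 0.36 in WT, and the kinase gene AT3G63340 by 0.32, 0.22 and 0.28. Both have more than 1 annotated acceptor pair.

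**Figure D2:**
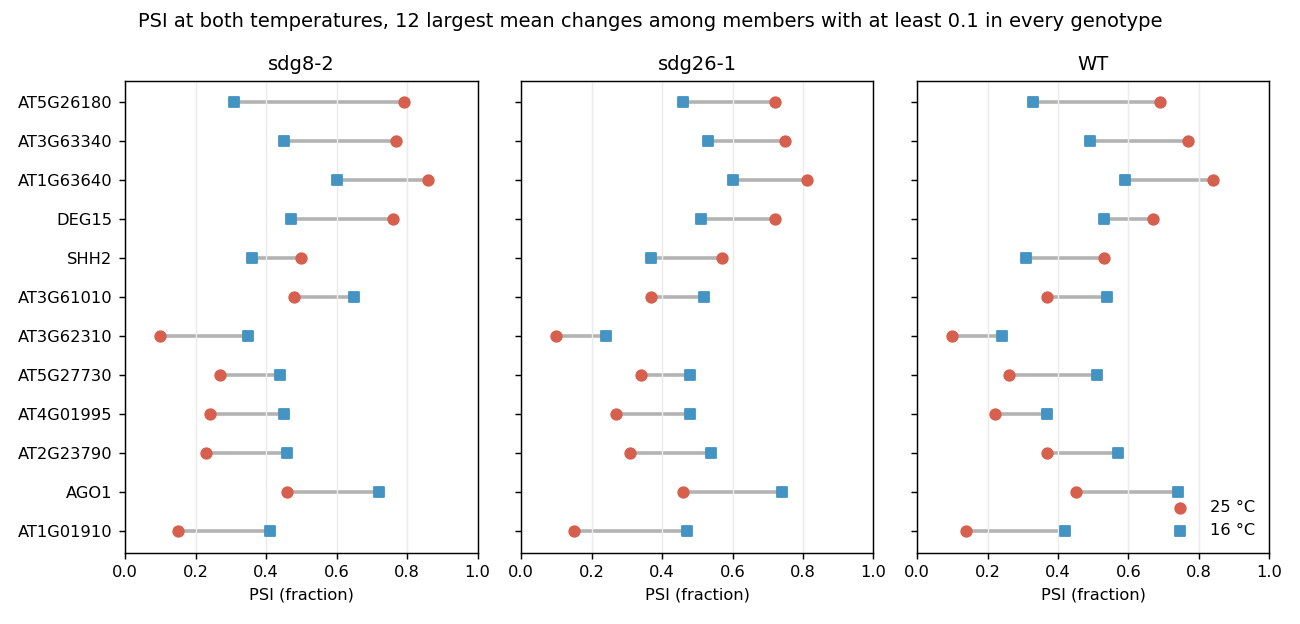
PSI (fraction, 0 to 1) at 25 °C (red circles) and 16 °C (blue squares) in *sdg8-2*, *sdg26-1* and WT for the 12 genes with the largest mean change among those with a difference of at least 0.1 in every genotype. Each symbol is 1 pooled value and the grey bar is the difference; the red circle lies right of the blue square in the upper 5 genes and left of it in the lower 7, in all 3 panels.

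By role, genes of RNA binding and RNA processing were the largest group, with 16 members. In 13 of them PSI differed the same way in every genotype, 9 lower and 4 higher at 25 °C, beside 44 and 38 among all 95 genes. The whole table leaned to lower PSI as well, with 191 of the 399 listed events lower and 144 higher in every genotype. These counts depend on which genes were placed on the list, and *SAC3B*, an mRNA export gene described further on, is not on it. The median change of the 16 genes was −0.06 in *sdg8-2*, −0.065 in *sdg26-1* and −0.06 in WT, beside −0.03, −0.05 and −0.03 over all listed events. At least 0.1 was reached by 8, 9 and 6 of the 16 in these genotypes, beside 56.1%, 59.6% and 51.1% of all listed events. Among the genes of this group with lower PSI at 25 °C were some that encode helicases. AT3G62310, a DEAH-box helicase gene, had a PSI of 0.1 at 25 °C in each genotype, against 0.35 at 16 °C in *sdg8-2* and 0.24 in both *sdg26-1* and WT.

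The related gene AT2G47250 had 0.42 at 25 °C, against 0.58 at 16 °C, in *sdg8-2*, 0.5 against 0.6 in *sdg26-1*, and 0.51 against 0.65 in WT. *RH3* (AT5G26742, also *emb1138*) encodes a DEAD-box helicase that acts in the splicing of chloroplast introns. Its PSI was 0.21 against 0.35 in *sdg8-2*, 0.22 against 0.35 in *sdg26-1*, and 0.23 against 0.35 in WT, with no difference between genotypes at 16 °C and one of at most 0.02 at 25 °C. AT5G19210, annotated among the P-loop hydrolases, had 0.7 against 0.9 in *sdg8-2*, 0.75 against 0.88 in *sdg26-1*, and 0.76 against 0.92 in WT. In these 4 genes PSI was lower at 25 °C in all genotypes by 0.1 or more.

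AT2G40700, with the same P-loop hydrolase annotation as AT5G19210, was lower at 25 °C in *sdg8-2* alone. Its PSI was 0.75 at 25 °C, against 0.92 at 16 °C, in *sdg8-2*, but 0.8 against 0.78 in *sdg26-1* and 0.76 against 0.71 in WT. The 25 °C values were thus close together and *sdg8-2* stood apart at 16 °C. Of the members with higher PSI at 25 °C, *RBP-DR1* (AT4G03110), an RNA-binding protein gene linked to defence, had 0.3 against 0.19 in *sdg8-2*, 0.29 against 0.21 in *sdg26-1*, and 0.3 against 0.21 in WT. AT3G62840, which encodes a small nuclear ribonucleoprotein of the Sm type, a core part of the spliceosome, had 0.32 against 0.26 in *sdg8-2*, 0.33 against 0.23 in *sdg26-1*, and 0.33 against 0.21 in WT.

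The other 8 genes of this group had smaller or uneven differences. The RRM protein gene AT1G67950 was higher at 25 °C by 0.03 in *sdg8-2*, 0.12 in *sdg26-1* and 0.07 in WT, and the CCCH zinc finger gene AT2G47850 by 0.03, 0.14 and 0.06. AT1G76630, a TPR protein gene, was lower by 0.01, 0.17 and 0.06. The RNA-binding protein genes *TRM9*, AT3G04500 and *BTR1L* were lower at 25 °C in each genotype, by 0.05 to 0.09. AT1G31870, which encodes a factor of the RES complex of pre-mRNA splicing, had the lowest levels, with 0.07 at 25 °C and 0.03 at 16 °C in *sdg8-2*, 0.01 and 0.07 in *sdg26-1*, and 0.05 at both temperatures in WT. *RNEE/G* (AT2G04270), the chloroplast RNase E/G gene, had changes of 0.11 in *sdg8-2*, 0.03 in *sdg26-1* and −0.03 in WT.

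The 14 genes of chromatin, DNA and transcription split almost evenly, with 7 higher and 6 lower at 25 °C in every genotype. Of all 399 listed events, 144 were higher and 191 lower in every genotype. The split depends on which genes were placed on the list. AT1G19330, annotated as a histone deacetylase complex subunit and not on it, was higher by 0.11 in *sdg8-2*, 0.04 in *sdg26-1* and 0.04 in WT. *SHH2* (AT3G18380), a homeodomain gene related to SHH1 of RNA-directed DNA methylation, had a PSI of 0.5 at 25 °C, against 0.36 at 16 °C, in *sdg8-2*, 0.57 against 0.37 in *sdg26-1*, and 0.53 against 0.31 in WT. *WRKY11* (AT4G31550), a WRKY transcription factor gene of defence, had 0.8 against 0.64 in *sdg8-2*, 0.81 against 0.66 in *sdg26-1*, and 0.8 against 0.7 in WT. AT5G03500, which encodes the Mediator subunit Med7, had 0.84 against 0.73 in *sdg8-2*, 0.85 against 0.74 in *sdg26-1*, and 0.89 against 0.74 in WT. These 3 were at least 0.1 higher at 25 °C in all genotypes.

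The PHD finger gene AT1G77800 had a PSI of 0.42 at 25 °C, against 0.66 at 16 °C, in *sdg8-2*, 0.52 against 0.59 in *sdg26-1*, and 0.57 against 0.71 in WT. *TKI1* (AT2G36960), which encodes a partner of the TOUSLED kinase, had 0.21 against 0.24 in *sdg8-2*, 0.13 against 0.26 in *sdg26-1*, and 0.14 against 0.3 in WT. For the DNA glycosylase gene AT3G07930 the values were 0.1 against 0.16 in *sdg8-2*, 0.08 against 0.29 in *sdg26-1*, and 0.15 against 0.27 in WT. All 3 genes were lower at 25 °C in every genotype, and the genotype with the widest difference was not the same in each. The bZIP factor gene *BZIP25* was lower by 0.09, 0.02 and 0.14 in *sdg8-2*, *sdg26-1* and WT, the DNA-binding protein gene AT1G29850 by 0.03, 0.12 and 0.06, and AT5G47690, annotated as a binding protein, by 0.09, 0.1 and 0.09.

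Of the remaining genes of this group, AT4G14920, which encodes a PHD finger protein with an acetyltransferase domain, had a PSI of 0.91 at 25 °C, against 0.67 at 16 °C, in *sdg8-2*, beside 0.83 against 0.78 in *sdg26-1* and 0.81 against 0.77 in WT. *SIG4* (AT5G13730), a sigma factor gene of the plastid RNA polymerase, was higher at 25 °C by 0.09 in *sdg8-2*, 0.13 in *sdg26-1* and 0.1 in WT. AT1G30590, which encodes the RNA polymerase I initiation factor RRN3, was higher by 0.08, 0.02 and 0.01, and the homeodomain-like gene *UNE16* by 0.02, 0.02 and 0.06. AT5G25520, with a SPOC domain, had changes of 0.11 in *sdg8-2*, −0.01 in *sdg26-1* and 0.03 in WT.

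Of the 8 genes with products in the chloroplast, 6 had a higher PSI at 25 °C in every genotype and 1, *RH3*, a lower one. By the same rule 38 of all 95 genes were higher and 44 lower, and 144 and 191 of all 399 listed events. *RNEE/G* went different ways, as given above. The median change was 0.095 in *sdg8-2*, 0.075 in *sdg26-1* and 0.085 in WT, beside −0.01, −0.03 and −0.03 over all 95 genes. At least 0.1 higher at 25 °C were 4, 2 and 3 of the 8, beside 24.3%, 24.8% and 23.3% of all listed events.

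*PGR5-LIKE A* (AT4G22890) encodes a thylakoid protein of cyclic electron flow around photosystem I. Its PSI was 0.62 at 25 °C, against 0.5 at 16 °C, in *sdg8-2*, 0.63 against 0.52 in *sdg26-1*, and 0.64 against 0.47 in WT. *CHLM* (AT4G25080), the methyltransferase gene of chlorophyll synthesis, had 0.84 against 0.76 in *sdg8-2*, 0.85 against 0.77 in *sdg26-1*, and 0.83 against 0.73 in WT. *CYP38* (AT3G01480), a thylakoid cyclophilin gene of photosystem II assembly, had 0.28 against 0.17 in *sdg8-2*, 0.24 against 0.17 in *sdg26-1*, and 0.25 against 0.17 in WT. In *CYP38* the 16 °C values were the same in all genotypes. *KEA1*, which encodes a potassium antiporter of the chloroplast envelope, was higher at 25 °C by 0.06, 0.08 and 0.09 in *sdg8-2*, *sdg26-1* and WT, and *ATH13*, a gene of the ABC1-like kinase family, by 0.1, 0.06 and 0.07. The 8 genes were grouped with earlier results of these data known, and the pattern was not tested. It depends on which genes were placed on the list, since AT4G01995, whose annotated enzyme type acts in plastids and which is not on it, was lower at 25 °C by 0.21, 0.21 and 0.15.

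The 7 genes of kinase and phosphatase signalling had no common direction, with 2 higher and 3 lower in all genotypes and 2 mixed. Of all 399 listed events, 84.0% had a shared direction, with 144 events higher and 191 lower. *F2KP* (AT1G07110), the bifunctional enzyme gene of fructose-2,6-bisphosphate metabolism, had a PSI of 0.72 at 25 °C, against 0.92 at 16 °C, in *sdg8-2*, 0.79 against 0.9 in *sdg26-1*, and 0.86 against 0.91 in WT. The receptor-like kinase gene *FEI1* of cell wall growth was lower at 25 °C by 0.03, 0.09 and 0.09 in *sdg8-2*, *sdg26-1* and WT, and *SNRK2.10*, a kinase gene of osmotic stress signalling, by 0.01, 0.02 and 0.07 at PSI values of at most 0.08. AT4G16360, a regulatory subunit gene of SnRK1 kinases, was higher by 0.07, 0.07 and 0.09. AT5G21222 had changes of 0.02, −0.04 and −0.11. The kinase gene AT4G32000 is described with the differences between genotypes.

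Among the 6 genes of the ubiquitin pathway, 2 were higher and 3 lower at 25 °C in all genotypes, beside 84.0% of all listed events with a shared direction. A difference of at least 0.1 was found in 2 in *sdg8-2*, 4 in *sdg26-1* and none in WT, beside 56.1%, 59.6% and 51.1% of all events. AT3G47910, annotated as related to ubiquitin hydrolases, had a PSI of 0.31 at 25 °C, against 0.18 at 16 °C, in *sdg8-2*, 0.38 against 0.2 in *sdg26-1*, and 0.29 against 0.2 in WT. *CER9* (AT4G34100), which encodes an E3 ligase of the endoplasmic reticulum that affects cuticle wax, had 0.77 against 0.81 in *sdg8-2*, 0.7 against 0.85 in *sdg26-1*, and 0.74 against 0.82 in WT. *KEG* (AT5G13530), the E3 ligase gene of abscisic acid signalling, had 0.69 against 0.65 in *sdg8-2*, 0.79 against 0.64 in *sdg26-1*, and 0.72 against 0.75 in WT, the only mixed member of this group. The UBX protein gene AT1G14570 was higher by 0.05 to 0.11, and *RHB1A*, a RING finger gene, and AT1G53400, a ubiquitin domain gene, were lower by 0.05 to 0.12.

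All 7 genes of the cytoskeleton and vesicle traffic kept their direction, 5 lower and 2 higher at 25 °C, where 84.0% of all listed events did so. *TRM15*, a gene of the TON1 recruiting motif family that was not placed on this list, did not, as given further on. The second of the higher genes beside AT1G63640 was *KICP-02* (AT3G50240), also a microtubule motor gene, with a PSI of 0.47 at 25 °C, against 0.29 at 16 °C, in *sdg8-2*, 0.4 against 0.31 in *sdg26-1*, and 0.43 against 0.26 in WT. AT4G32330, which encodes a TPX2-family microtubule protein, had 0.77 at 25 °C in each genotype, against 0.87 at 16 °C in both mutants and 0.89 in WT. *WDL1*, a gene of the WVD2-like microtubule proteins, had 0.55 against 0.66 in *sdg8-2*, 0.57 against 0.62 in *sdg26-1*, and 0.55 against 0.65 in WT. *CRK*, which encodes a subunit of the actin-nucleating ARP2/3 complex, was lower by 0.02, 0.13 and 0.07 in *sdg8-2*, *sdg26-1* and WT, the oxysterol-binding protein gene *UNE18* by 0.13, 0.05 and 0.02, and *TPLATE*, an endocytosis gene, by 0.05, 0.03 and 0.03 at PSI values of at least 0.94.

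The other 40 genes are on none of these lists, and 34 of them kept their direction, 16 higher and 18 lower at 25 °C. Among those with little difference between genotypes were AT5G14440, a SURF2 gene, with 0.51 at 25 °C and 0.37 at 16 °C in *sdg8-2*, 0.5 and 0.36 in *sdg26-1*, and 0.48 and 0.33 in WT, and AT1G14270, a CAAX protease gene, with 0.74 and 0.84, 0.73 and 0.84, and 0.73 and 0.85 in the same order of genotypes. AT2G20950, a phospholipase-like gene, had a PSI of 0.36 at 25 °C in all 3 genotypes, against 0.43 at 16 °C in *sdg8-2*, 0.46 in *sdg26-1* and 0.51 in WT. The nucleotide salvage gene *APT1* was higher at 25 °C by 0.05 to 0.07, the vacuolar ATPase subunit gene *VAG2* by 0.05 to 0.09 and the nudix hydrolase gene *NUDT20* by 0.07 to 0.11.

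The annotated acceptors of many members lay close together. Of the 45 members with exactly 1 annotated pair, 20 (44.4%) had acceptors 3 bases apart, 9 had 4 to 12 bases and 16 more than 12, with a median of 4 bases and a maximum of 330. Among the 53 other listed genes with 1 pair, 11 (20.8%) had 3 bases and the median was 24. Among all 2652 annotated genes with 2 or more transcripts and 1 pair, 442 (16.7%) had 3 bases and the median was 15. The distance was a multiple of 3 in 29 of the 45 members (64.4%), beside 56.0% of the annotated genes. The other listed genes were mostly listed for events of other types, and the shares were not tested.

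**Figure D3:**
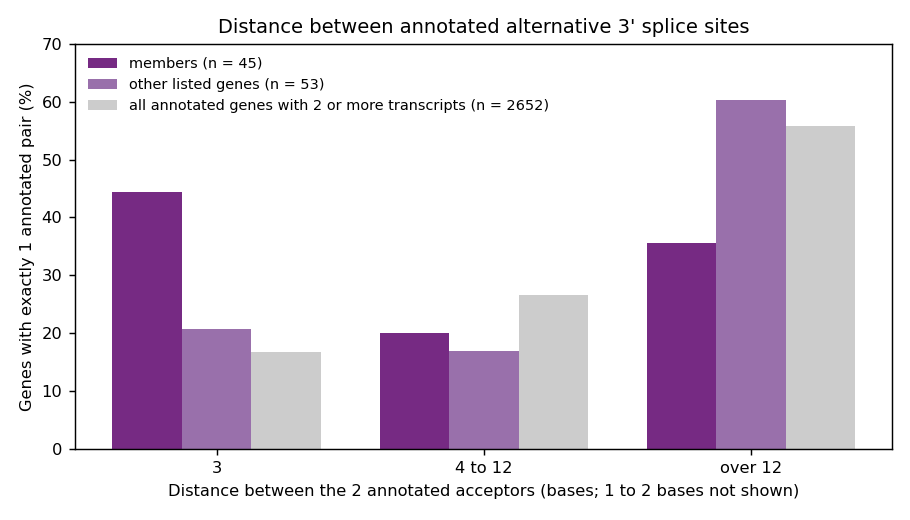
Share (%) of genes with exactly 1 annotated pair of alternative acceptors, by the distance between the acceptors in bases, for the 45 members (dark purple), the 53 other listed genes (light purple) and the 2652 annotated genes (grey). At 3 bases the members' bar stands at 44.4%, against 20.8% and 16.7% for the other sets.

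The letters at the tandem acceptors of the 20 members were set beside those of the 442 annotated genes with a single pair 3 bases apart. TAG upstream with CAG downstream was found in 10 of the 20 (50.0%), against 94 of the 442 annotated genes (21.3%). CAG with AAG was found in 3 (15.0%, against 15.8%), TAG with TAG in 3 (15.0%, against 5.43%), CAG with CAG in 2 (10.0%, against 18.1%), AAG with AAG in 1 (5.0%, against 4.52%) and AAG with CAG in 1 (5.0%, against 8.14%). GAG occurred at neither site in any of the 20, and at 1 or both sites in 10.4% of the 442. These shares rest on 20 genes and were not tested, and the measured event may not be the annotated pair. The letters were searched as TAG, CAG, AAG and GAG on the strand of the gene only, at the 2 annotated sites. In 19 of the 20 genes the pair lies in coding sequence and in 1, AT1G16180, a Serinc-domain gene, in the 5′ UTR.

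Genes with the same letters did not all share a direction of PSI. Of the 10 genes with TAG upstream and CAG downstream, 5 were higher at 25 °C in all genotypes, among them AT5G14440, and 5 lower in all, among them AT1G77800. The genes with CAG at both sites, *SHH2* and *TKI1*, had PSI values near each other in WT at 16 °C, 0.31 and 0.3, and lay apart at 25 °C, with 0.53 and 0.14. Of the 3 genes with TAG at both sites, AT3G47910 was higher and *FEI1* and AT4G32330 were lower in every genotype. Since it is not known which acceptor gives the spliced-in form in each gene, an opposite direction of PSI need not be an opposite direction along the transcript. The measured event may also not be the annotated pair. Whether the letters bear on the choice of acceptor therefore cannot be told from these values.

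Of the 20 genes whose only annotated pair lies 3 bases apart, 19 (95.0%) kept the direction of their temperature difference. Of these, 9 were higher and 10 lower, and *KEG* was the exception. The share was 86.3% among all members and 84.0% among all listed events. In all, 30 members have an annotated pair 3 bases apart, some of them beside other pairs. Among the latter, AT4G32000 did not keep its direction, with changes of −0.08 in *sdg8-2*, 0.02 in *sdg26-1* and 0.28 in WT. Of the 9 genes with a single pair 4 to 12 bases apart 7 kept their direction, and of the 16 with more than 12 bases 14. The median absolute change of the 20 genes with a single pair 3 bases apart was 0.11 in *sdg8-2*, 0.115 in *sdg26-1* and 0.09 in WT. It was 0.1, 0.11 and 0.12 at 4 to 12 bases, and 0.06, 0.09 and 0.06 beyond 12 bases. The 20 genes with several annotated pairs leaned to higher PSI at 25 °C, with 16 higher and 4 lower in *sdg8-2*, 15 and 5 in *sdg26-1*, and 16 and 4 in WT. The 29 genes with no annotated pair leaned the other way, with 10 higher and 19 lower in *sdg8-2*, 9 and 20 in *sdg26-1*, and 10 and 19 in WT. The whole table also leaned to lower PSI. Of all 399 listed events, 42.6% were higher and 56.1% lower in *sdg8-2*, 43.1% and 55.9% in *sdg26-1*, and 44.1% and 54.6% in WT. The splits by number of annotated pairs were not tested.

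**Figure D4:**
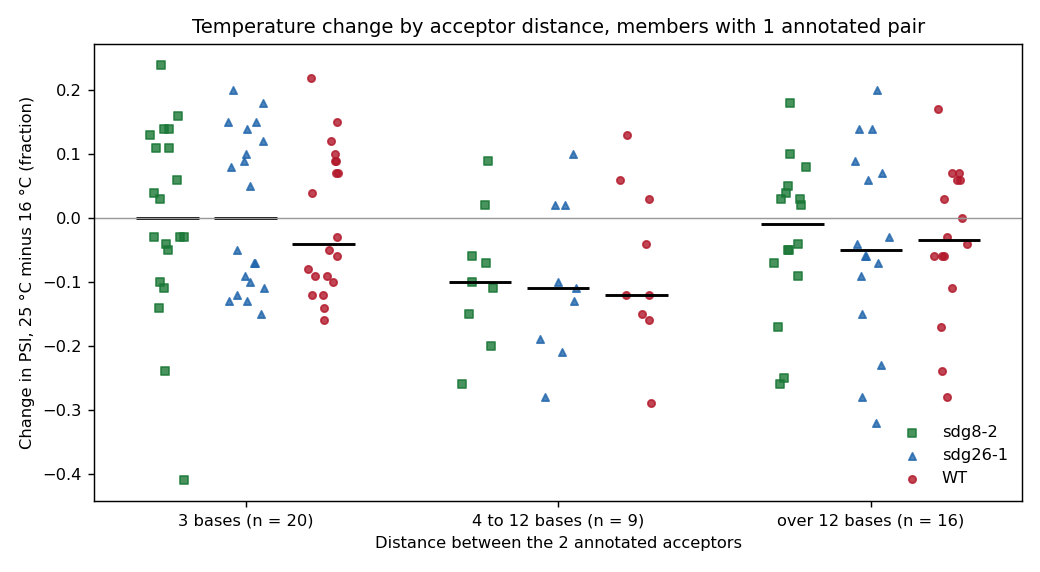
Change in PSI (25 °C minus 16 °C, as a fraction) of the 45 members with exactly 1 annotated acceptor pair, by the distance between the acceptors (20 genes at 3 bases, 9 at 4 to 12, 16 over 12), for *sdg8-2*, *sdg26-1* and WT. Each point is a gene, horizontal jitter is for display, and black lines are medians; the points of the tandem genes lie on both sides of 0 in each genotype.

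The level at 16 °C went with the direction in part. Of the 22 genes with a PSI above 0.8 in WT at 16 °C, 15 were lower at 25 °C in *sdg8-2*, 17 in *sdg26-1* and 15 in WT. Of the 57 genes between 0.2 and 0.8, 27, 28 and 27 were lower, and of the 16 genes below 0.2, 7, 7 and 8. In the other events, 41, 38 and 37 of 62 were lower above 0.8, and 28, 23 and 20 of 54 below 0.2. A gene close to 1 has less room above than below, but whether this bears on the direction was not tested. For WT the class and the change share the 16 °C value.

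The difference between the temperature change in a mutant and that in WT was at least 0.1 in 22 genes for *sdg8-2* (23.2%), 12 with a higher and 10 with a lower change than WT, beside 26.1% of all listed events (11.3% higher, 14.8% lower). It was at least 0.1 in 14 genes for *sdg26-1*, 8 higher and 6 lower, beside 22.6% (9.77% higher, 12.8% lower). Regardless of sign, the change was larger in *sdg8-2* than in WT in 50 genes, smaller in 38 and equal in 7, and for *sdg26-1* it was larger in 42, smaller in 46 and equal in 7. In the 304 other events it was larger in 154 and smaller in 128 for *sdg8-2*, and larger in 153 and smaller in 129 for *sdg26-1*. Both comparisons use the same WT values.

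**Figure D5:**
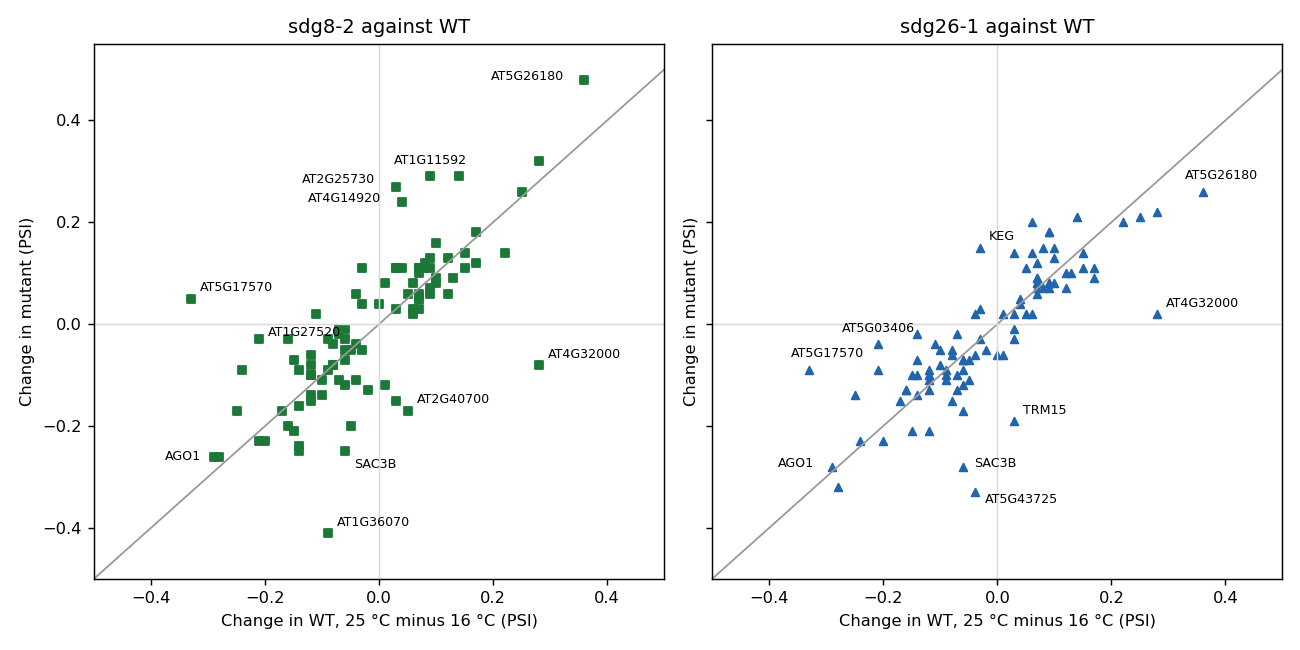
Change in PSI (25 °C minus 16 °C, as a fraction) of the 95 genes in *sdg8-2* (left, green squares) and *sdg26-1* (right, blue triangles) on the vertical axis against the change in WT on the horizontal axis, with 1 pooled value per gene and axis and a diagonal line at equal changes. *AGO1* lies close to the line in both panels, while AT4G32000 and AT5G17570 lie on opposite sides of it, with WT changes of 0.28 and −0.33.

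AT4G32000, which encodes a protein kinase, had the lowest change in *sdg8-2* relative to WT. Its PSI was 0.49 at 25 °C, against 0.57 at 16 °C, in *sdg8-2* and 0.67 against 0.65 in *sdg26-1*, whereas WT had 0.72 against 0.44. Both mutants were above WT at 16 °C, by 0.13 in *sdg8-2* and 0.21 in *sdg26-1*, and below it at 25 °C, by 0.23 and 0.05. The DNase gene AT5G17570 had the highest change in *sdg8-2* relative to WT. Its genotypes lay within 0.02 at 16 °C and spread at 25 °C, where *sdg8-2* was 0.36 and *sdg26-1* 0.23 above WT.

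*SAC3B* (AT3G06290), a gene of the nuclear complex for mRNA export, had a wider difference in both mutants than in WT. PSI was 0.41 at 25 °C, against 0.66 at 16 °C, in *sdg8-2*, 0.49 against 0.77 in *sdg26-1*, and 0.67 against 0.73 in WT. *TRM15* (AT4G00440), a gene of the TON1 recruiting motif family, had 0.31 against 0.46 in *sdg8-2*, 0.38 against 0.57 in *sdg26-1*, and 0.37 against 0.34 in WT. In *SAC3B* the mutants were 0.26 and 0.18 below WT at 25 °C, and in *TRM15* they were 0.12 and 0.23 above WT at 16 °C. The noncoding RNA gene AT1G11592 had 0.68 against 0.39 in *sdg8-2*, 0.66 against 0.48 in *sdg26-1*, and 0.54 against 0.45 in WT.

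In a few other genes the change in *sdg8-2* lay apart from that in WT. The WD40 gene AT1G36070 had similar PSI at 16 °C in all genotypes, 0.56, 0.52 and 0.55 in *sdg8-2*, *sdg26-1* and WT, and at 25 °C 0.15 in *sdg8-2*, beside 0.41 and 0.46. AT2G25730, a FYVE zinc finger gene, had 0.87 at 25 °C, against 0.6 at 16 °C, in *sdg8-2*, beside 0.77 against 0.8 in *sdg26-1* and 0.87 against 0.84 in WT, so that *sdg8-2* stood apart at 16 °C and not at 25 °C. AT1G27520, a glycosyl hydrolase gene, had 0.75 against 0.78 in *sdg8-2*, 0.7 against 0.79 in *sdg26-1*, and 0.69 against 0.9 in WT, so that both mutants were below WT at 16 °C, by 0.12 and 0.11.

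In *sdg26-1*, the noncoding RNA gene AT5G43725 had a PSI of 0.35 at 25 °C, against 0.68 at 16 °C, beside 0.74 against 0.68 in *sdg8-2* and 0.5 against 0.54 in WT. The mutants had the same value at 16 °C and lay on either side of WT at 25 °C. AT5G03406, annotated in the class II aminoacyl-tRNA synthetase family, had 0.44 against 0.48 in *sdg26-1*, beside 0.38 against 0.61 in *sdg8-2* and 0.44 against 0.65 in WT. AT5G67540, a glycosidase-type gene, had 0.66 against 0.46 in *sdg26-1*, beside 0.69 against 0.61 in *sdg8-2* and 0.63 against 0.57 in WT.

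In all, 13 genes did not differ in the same direction in the 3 genotypes. Besides AT4G32000, AT5G17570, AT2G25730, AT2G40700, *TRM15*, *KEG*, AT5G43725, AT5G25520, AT5G21222, *RNEE/G* and AT1G31870 these were AT2G47020, a peptide chain release factor gene, with changes of −0.11 in *sdg8-2*, 0.02 in *sdg26-1* and −0.04 in WT, and AT5G11610, an exostosin family gene, with −0.12, −0.06 and 0.01. In AT1G31870 every change was below 0.1. No gene had differences of at least 0.1 in opposite directions in 2 genotypes.

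The mutants were also compared with WT at each temperature. The listed events were selected for a difference between temperatures and not for one between genotypes, so these counts are not set against those above. At 25 °C, *sdg8-2* differed from WT by at least 0.1 in 15 genes, 9 higher and 6 lower, beside 15.0% of all listed events (7.77% higher, 7.27% lower). At this temperature *sdg26-1* differed in 5 genes, 2 higher and 3 lower, beside 9.52% (5.01% higher, 4.51% lower). At 16 °C, *sdg8-2* differed in 14 genes, 7 higher and 7 lower, beside 18.3% of all events (11.3% higher, 7.02% lower), and *sdg26-1* in 11 genes, 5 higher and 6 lower, beside 14.3% (6.77% higher, 7.52% lower). Counted at any size, *sdg8-2* was higher than WT in 48 and lower in 35 of the 95 genes at 25 °C, beside 42.9% and 47.4% of all events. At 16 °C it was higher in 42 and lower in 47, beside 48.9% and 44.4%. *sdg26-1* was higher in 40 and lower in 37 at 25 °C, beside 39.1% and 46.6%, and higher in 41 and lower in 41 at 16 °C, beside 46.4% and 42.6%.

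Where the change in a mutant differed from that in WT by at least 0.1, the gap between the genotypes was not tied to 1 temperature. Of the 22 such genes for *sdg8-2*, the difference from WT was larger at 25 °C in 13 and at 16 °C in 8, and equal in 1. In the other 304 listed events 82 had such a difference, and in these it was larger at 25 °C in 28 and at 16 °C in 53. Of the 14 such genes for *sdg26-1*, it was larger at 25 °C in 6 and at 16 °C in 8, beside 27 and 47 of 76 in the other events. These counts share the WT values and were not tested.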

How the data were processed

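Per the submitters' processing notes, reads were handled with TopHat2 and Cufflinks on TAIR10, and the study's methods add MISO for PSI. Tool versions were not given in the sources used here. Replicates had been merged by the authors, who deposited PSI as a fraction with 2 decimals, 1 value for each of 399 events in each of 6 conditions, from 18 samples. A further 6 deposited columns hold the authors' PSI differences and calls and were not used, except that all 399 events carry a call in at least 1 genotype.

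Members were single-row genes with an A3 event outside the rule's exclusions. Changes (25 °C minus 16 °C) and mutant minus WT differences were computed from PSI in hundredths and counted at 0.1. No p-value was computed, since there are no replicate values. The members, role lists and tests were chosen with earlier results of these data known. Named genes were the extremes of each change and difference and all role-list members; other genes, among them AT4G01995, *VAG2* and *NUDT20*, were chosen after their values were seen. Annotated pairs and sequences come from RefSeq TAIR10.1 and share a donor. Chromosome positions of TAIR10.1 were used because the coding spans in the table and in the annotation were the same in 88 of 92 members. Counting was checked on simulated data. Alternatives used limits of 0.05 and 0.2, every A3 event, logit PSI, and PSI from 0.1 to 0.9. Python 3.11.15, numpy 2.4.6, pandas 2.3.3 and matplotlib 3.10.9 were used.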

Additional observations from a re-analysis of the deposited data

How the results depend on the processing

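No paired analysis was possible because the table holds 1 pooled value per condition, and no replicate could be left out for the same reason. The counts moved with the size counted. At 0.05 in place of 0.1, the genes that differed between temperatures were 79 in *sdg8-2*, 80 in *sdg26-1* and 78 in WT, and at 0.2 they were 18, 14 and 13. The genes whose change differed from WT were 42 for *sdg8-2* and 42 for *sdg26-1* at 0.05, and 7 and 5 at 0.2. Between mutant and WT at 25 °C there were 33 for *sdg8-2* and 30 for *sdg26-1* at 0.05, and 5 and 1 at 0.2. At 16 °C there were 39 and 23 at 0.05, and 2 and 2 at 0.2. The genes that differed in the same direction in all genotypes were 61 at 0.05 and 6 at 0.2. With all 130 A3 events, 76 differed between temperatures in *sdg26-1* and 71 in WT, 9 differed between *sdg26-1* and WT at 25 °C, and 45 differed the same way in all genotypes, a set with more events by construction. On the logit scale at 0.5, 23 differed between *sdg8-2* and WT at 16 °C, 11 between *sdg26-1* and WT at 25 °C, and 35 the same way in all genotypes, where low and high PSI weigh more. The other 23 counts stayed within 1.5 times the reported ones, among them all 10 with the 65 members whose PSI stayed between 0.1 and 0.9. Those 10 come from a smaller set, so that similar counts are not similar shares. In *sdg26-1*, for example, 41 of the 65 differed between temperatures, beside 49 of the 95. Read depth, and so the precision of each PSI, is unknown.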
